A study of Homo sapiens with 24 samples.

Results

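The comparison of palbociclib with alisertib cells rested on 6 of the 24 mRNA-seq libraries of the series, 3 of SKBR3 cells treated with palbociclib against 3 treated with alisertib, chosen by treatment label alone. SKBR3 is an established human breast cancer cell line of luminal type with an amplified ERBB2 (HER2) gene. Palbociclib, an inhibitor of the cyclin D-dependent kinases CDK4 and CDK6, was given at 1 μmol/L, and alisertib, an inhibitor of the mitotic kinase Aurora A, at 500 nmol/L. Both drugs were renewed at day 3 and cells were collected at day 7, a schedule the study used to induce therapy-induced senescence (TIS). Untreated cells of day 7 and of day 0, with 3 libraries each, served as the reference for levels. The labels name a refeed at day 3 for the drug-treated cells and none for untreated cells. Against untreated cells, drug and refeed therefore cannot be told apart. Nothing in the labels gives the sources of the replicates, so that p-values measure only the spread between these samples, which may be technical. A single cell line was used, at a single dose and time per drug.

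CDK4 and CDK6 bind D-type cyclins and phosphorylate the retinoblastoma protein, which releases E2F factors to transcribe the genes of S-phase entry. Genes of mitosis carry a CHR element in their promoters, through which the DREAM complex represses them in quiescent and G1 cells and complexes of MuvB with B-MYB and FOXM1 activate them later in the cycle. Aurora A acts downstream of this switch, at centrosomes and spindle poles, where it is activated by TPX2 and BORA and in turn activates PLK1. Inhibition of CDK4/6 is therefore known to arrest cells in G1 phase, before DNA replication, whereas inhibition of Aurora A is known to disturb mitosis and to leave cells with an increased DNA content.

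Total counts ranged from 30060164 to 32354645 in palbociclib and from 30672820 to 43705589 in alisertib libraries. Euclidean distances between log2 CPM (library-scaled count) profiles were 41.9 to 47.3 among palbociclib libraries, 36.6 to 43.7 among alisertib libraries, and 64.1 to 75 between both groups, so that no library lay closer to the other treatment than to its own. Of 7 genes that define the line, ERBB2 was 6700, 6578, and 6939 CPM in palbociclib and 7249, 6223, and 6912 CPM in alisertib cells. All 7 had counts in every library. The same held for every listed gene, as the lowest count was 1 in each palbociclib, alisertib, and untreated library, so it does not set these 7 apart. Of 16 markers of other cell types, 12 were not listed in the table, among them PTPRC of leukocytes, PECAM1 of endothelium, and COL1A2 of fibroblasts. As each listed gene had counts in all these libraries, a gene not listed cannot be taken as unexpressed, here and below. The summed level of the 4 listed markers was 58.6 to 68.3 CPM in palbociclib and 24.01 to 26.2 CPM in alisertib cells. In palbociclib cells most of it came from CDH5, the cadherin of endothelial junctions, at 39.5, 38.9, and 47.2 CPM against 6.63, 5.75, and 7.92 CPM in alisertib cells (log2 fold-change 2.63 ± 0.13, SE, adjusted p = 6.12e-07). Of the 4, 2 were called higher, CDH5 and CD68, and 1 lower, COL1A1. The part of other cell types in the results was not tested.

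Of 13846 genes tested, 389 were at least 2-fold higher (2.81%) and 397 at least 2-fold lower (2.87%) in palbociclib than in alisertib cells at an adjusted p under 0.05 (quasi-likelihood test of edgeR, Benjamini-Hochberg adjusted). At any fold, 1856 genes were higher (13.4%) and 2060 lower (14.9%), and the median log2 fold-change over all genes tested was 0.00. The shares of 13.4% and 14.9% are the reference for every count of list members called at any fold below. All log2 fold-changes given without another reference are palbociclib minus alisertib. In 20.3% of genes all 3 palbociclib libraries lay above the 3 alisertib libraries, and in 22.4% all lay below. Against untreated day-7 cells, 6178 genes (44.8%) differed in palbociclib cells and 2627 (19%) in alisertib cells at any fold, with the untreated libraries shared by both comparisons. Of the gene lists examined, those of DNA replication, mitosis, recombination, and cholesterol synthesis held mostly members lower in palbociclib cells, and those of MHC class I, autophagy, efflux, secreted matrix, and basal genes held more members higher than lower. RNA was taken from whole cultures, in which fewer cells in a phase and less RNA of that phase per cell cannot be told apart.

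To show which regulatory sequences the genes of these groups carry, promoters were read from RefSeq (build GRCh38.p14), which held 1 for 10793 of the 14493 genes, as a window from 250 bases before to 30 bases after the start. Motifs in capitals are an E2F site (TTTCCCGC, TTTCGCGC, TTTGCCGC, or TTTGGCGC), a CHR element spelled TTTGAA, an ISRE-like motif of interferon-stimulated genes spelled GAAANNGAA, or a box of the letters CCAAT, each searched on both strands. Promoters are shown for genes with large changes in the lists of replication origins (CDT1), kinetochores (NDC80), and interferon-stimulated genes (IFI6 and OAS3), all lower in palbociclib cells.
CDT1, chr16:88803539-88803818 (plus strand): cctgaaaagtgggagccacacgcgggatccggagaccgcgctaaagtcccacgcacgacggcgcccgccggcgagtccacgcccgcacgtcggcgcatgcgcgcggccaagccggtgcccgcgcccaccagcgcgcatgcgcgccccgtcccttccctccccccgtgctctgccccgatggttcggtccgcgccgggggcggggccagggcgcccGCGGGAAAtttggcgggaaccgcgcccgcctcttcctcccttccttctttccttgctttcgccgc
NDC80, chr18:2571307-2571586 (plus strand): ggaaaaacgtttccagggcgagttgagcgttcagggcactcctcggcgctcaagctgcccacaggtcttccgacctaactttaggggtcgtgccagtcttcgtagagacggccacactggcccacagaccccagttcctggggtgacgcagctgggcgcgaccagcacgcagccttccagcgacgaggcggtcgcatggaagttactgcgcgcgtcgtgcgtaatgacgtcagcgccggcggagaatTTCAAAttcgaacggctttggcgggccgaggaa
IFI6, chr1:27672163-27672442 (minus strand): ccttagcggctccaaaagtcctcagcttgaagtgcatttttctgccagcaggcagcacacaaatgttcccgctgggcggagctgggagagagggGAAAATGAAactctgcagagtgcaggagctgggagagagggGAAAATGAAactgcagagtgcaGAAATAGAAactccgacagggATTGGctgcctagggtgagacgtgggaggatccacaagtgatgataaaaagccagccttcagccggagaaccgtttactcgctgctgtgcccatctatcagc
OAS3, chr12:112938224-112938503 (plus strand): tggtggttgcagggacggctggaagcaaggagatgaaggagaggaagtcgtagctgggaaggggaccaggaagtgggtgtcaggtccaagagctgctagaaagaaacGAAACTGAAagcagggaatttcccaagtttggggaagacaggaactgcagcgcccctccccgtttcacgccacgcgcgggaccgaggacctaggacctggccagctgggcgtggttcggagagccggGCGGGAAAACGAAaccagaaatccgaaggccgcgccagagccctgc
The CDT1 window held an E2F site 35 bases before the start, NDC80 held a CHR element that begins 3 bases before it, IFI6 held 3 ISRE-like motifs and a CCAAT box, and in OAS3 an E2F site overlapped the nearer of 2 ISRE-like motifs. The windows of ORC1 and SKA1, also among the most changed genes of these lists, held a CCAAT box and no match, respectively, which says only that these letters are not in the window.

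E2F sites were found in 35 of 298 promoters (11.7%) of genes at least 2-fold lower in palbociclib cells, in 5 of 282 (1.77%) of genes at least 2-fold higher, and in 5.1% of the 10696 promoters of genes tested. By list, 10 of 22 promoters of replication origin genes (45.5%) held one. The CHR element was found in 21 of 27 promoters of spindle and cytokinesis genes (77.8%), against 9.15% of all genes tested. Its share was 16.8% among genes at least 2-fold lower and 16% among those at least 2-fold higher, so that it did not separate the directions. ISRE-like motifs were found in 13 of 17 promoters of interferon-stimulated genes (76.5%) and in 6.23% of all. Among genes at least 2-fold lower their share was 6.71%, and among those at least 2-fold higher 8.51%, so that they were not more frequent in the lower genes. CCAAT boxes were found in 14 of 17 promoters of cholesterol synthesis genes (82.4%) and in 36.4% of all. The sterol regulator's SREBP site, searched as TCACNCCAC, was found in 1 of these 17 promoters (5.88%) and in 0.935% of all. These matches describe letters in the windows and no binding was measured.

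The targets of palbociclib and the pathway around them were examined first. Of 21 genes of the CDK4/6-RB axis, CCND2 and CDKN1C were not listed in the table and 19 were tested. Of these, 5 were higher and 10 lower in palbociclib cells at any fold, while the summed level was higher (1145 ± 31.6 against 962 ± 39.1 CPM, SD, n = 3). The difference of the sums was no larger than that of CCND1 alone (459 ± 47.1 against 269 ± 31.7 CPM, SD, n = 3). CCND1, the cyclin D1 partner of both kinases (GRCh37 chr11:69455924-69469242), measured 453, 508, and 415 CPM in palbociclib cells, 289, 285, and 232 CPM in alisertib cells, and 224, 189, and 178 CPM in untreated day-7 cells. The groups did not overlap and CCND1 was 1.71-fold higher in palbociclib than in alisertib cells (log2 fold-change 0.77 ± 0.10, adjusted p = 0.000324). CDK6 measured 89.9, 98.4, and 106 CPM against 57.6, 54, and 56.9 CPM, a log2 fold-change of 0.81 ± 0.08 (adjusted p = 3.89e-05). CDK4, the other kinase target, did not pass the threshold (0.16 ± 0.06, adjusted p = 0.0812), although with the replicate number as a block it did (adjusted p = 0.034).

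Inhibitors of these kinases moved in both directions. CDKN2B (p15INK4B, chr9:22002902-22009304), which binds CDK4 and CDK6, measured 90.7, 71.8, and 84.6 CPM in palbociclib cells and 28.1, 25.6, and 29.2 CPM in alisertib cells, and 8.53, 10.9, and 11 CPM in untreated day-7 cells. It stood above the untreated level with both drugs, by 3.03 on the log2 scale with palbociclib and 1.46 with alisertib, and was 2.99-fold higher with the former (adjusted p = 2.35e-06). CDKN1A (p21) measured 27.5, 26.9, and 25.4 CPM in palbociclib and 11.3, 13.4, and 9.73 CPM in alisertib cells (log2 fold-change 1.22 ± 0.12, adjusted p = 4.42e-05). Alisertib cells did not pass the threshold against untreated day-7 cells for this gene (-0.08, adjusted p = 0.781). CDKN2A (p16 and ARF) was also higher with palbociclib, at 16.3 ± 0.673 against 9.86 ± 0.472 CPM (SD, n = 3, adjusted p = 0.000448). In contrast, CDKN2C (p18, -1.10), CDKN2D (p19, -1.04), and CDKN1B (p27, -0.43) were lower. Antisense transcript CDKN2B-AS1 overlaps CDKN2A and CDKN2B, and use of strand in the counting is not stated in the sources used here.

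Downstream of the kinases, CCNE2, CCNA2, RBL1, and RB1 were lower in palbociclib cells, while CCNE1 and RBL2 were not called. CCNE2, a cyclin E, measured 1.8, 1.04, and 1.86 CPM in palbociclib against 4.53, 4.2, and 5.67 CPM in alisertib cells (log2 fold-change -1.61 ± 0.24), whereas its paralogue CCNE1 had a value of 0.03 ± 0.09 (adjusted p = 0.831). CCNA2, cyclin A2, measured 25, 17.8, and 21 CPM against 70.8, 51.9, and 55 CPM (-1.47 ± 0.14, adjusted p = 4.17e-05). The phosphatase gene CDC25A (-1.15), the pocket protein gene RBL1 (-1.10), CDK2 (-0.71), CCND3 (-0.54), and RB1 (-0.32) were lower as well. RBL2 (0.18, adjusted p = 0.107) and SKP2 (-0.04, adjusted p = 0.806) did not pass, and RBL2 did with the block (adjusted p = 0.021).

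E2F and DREAM factors moved in both directions. Of 16 tested, 7 were lower and 4 higher in palbociclib cells. The activator E2F1 measured 15.2, 13.1, and 16.8 CPM with palbociclib, 41.1, 43.8, and 51.3 CPM with alisertib, and 48.6, 40.9, and 52.8 CPM in untreated day-7 cells. Palbociclib cells were below both other groups in every library (log2 fold-change against alisertib -1.59 ± 0.12, adjusted p = 6.62e-06), whereas alisertib and untreated cells overlapped. E2F2 (-1.79), the atypical repressors E2F7 (-1.66) and E2F8 (-1.48), and the mitotic gene activators FOXM1 (-1.35) and MYBL2 (-1.25) were lower too. The activator E2F3 (0.41), the repressive E2F4 (0.31) and E2F5 (0.66), and the dimerization partner TFDP2 (0.60) were higher. With all 24 libraries in 1 fit E2F3 and E2F4 were not called, and E2F4 was called only on leaving out palbociclib replicate 2 among the settings that left out 1 library (adjusted p up to 0.122).

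Replication genes followed in 1 direction. Of 26 genes that license and fire replication origins, 20 were lower and 0 higher in palbociclib cells at any fold in edgeR's test, against 14.9% lower over all genes, and the list median was -0.79. DESeq2 also called 20 lower. At an unadjusted p under 0.05 also, 0 members were higher in edgeR's test. The licensing factor gene CDT1 measured 14.3, 9.7, and 9.88 CPM with palbociclib, 40.1, 32.2, and 39.1 CPM with alisertib, and 49.3, 33.1, and 43.9 CPM untreated at day 7 (-1.71 ± 0.15, adjusted p = 2.52e-05). Alisertib values overlapped those of untreated cells and palbociclib values lay below them in all 3 libraries. ORC1, a subunit of the origin recognition complex, was at -1.60, geminin GMNN at -1.57, and MCM10 at -1.57. Of 29 replication fork genes, 26 were lower (median -0.73), among them the checkpoint adaptor CLSPN (-1.76), the polymerase subunit POLE2 (-1.50), the primase PRIM1 (-1.32), and the sliding clamp PCNA at 68.6, 47, and 58.8 CPM against 121, 124, and 146 CPM.

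Supply of nucleotides and repair by homologous recombination showed smaller medians in the same direction. RRM2, the regulated subunit of ribonucleotide reductase, measured 80.7, 54.5, and 72.1 CPM in palbociclib, 258, 212, and 246 CPM in alisertib, and 428, 313, and 401 CPM in untreated day-7 cells. It was 3.45-fold lower with palbociclib than with alisertib (adjusted p = 7.6e-06), and alisertib cells themselves were below untreated cells (-0.66, adjusted p = 0.00406). TYMS, thymidylate synthase, was at -1.58, and of 15 nucleotide synthesis genes 9 were lower (median -0.42). Of 24 homologous recombination and Fanconi genes, 19 were lower (median -0.65), led by the nuclease EXO1 (-1.52) and the helicase BRIP1 (-1.24).

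The target of alisertib was itself lower in the cells treated with the other drug. AURKA (GRCh37 chr20:54944445-54967393) measured 92.8, 75.2, and 70.5 CPM in palbociclib, 196, 155, and 152 CPM in alisertib, and 183, 158, and 169.5 CPM in untreated day-7 cells. Palbociclib values lay below all others, a log2 fold-change of -1.07 ± 0.12 against alisertib (adjusted p = 0.000108), and the value in alisertib against untreated day-7 cells was -0.01 (adjusted p = 0.975). Its activators TPX2 (-0.91) and BORA (-0.89) were also lower, as was AURKB of the chromosomal passenger complex, at 5.83, 3.19, and 3.82 CPM against 9.16, 8.49, and 10.5 CPM. PLK1, the kinase that Aurora A activates, measured 34.8, 24.2, and 22.2 CPM with palbociclib and 98.6, 76.2, and 81.5 CPM with alisertib (-1.65 ± 0.16, adjusted p = 3.71e-05). Of 20 genes of Aurora signalling and mitotic entry, 18 were lower and 1 higher (median -0.90). The higher gene was NEDD9, an adhesion scaffold known to activate Aurora A, at 111, 94.4, and 104 CPM against 47.7, 43.6, and 39.6 CPM (1.25 ± 0.09), and HASPIN (-0.33, adjusted p = 0.118) did not pass.

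Genes for kinetochores, spindles, and chromosome structure were mostly lower. Of 32 kinetochore and checkpoint genes, 30 were lower (median -0.71), including the outer kinetochore genes NDC80 at 6.79, 3.58, and 5.84 CPM against 22.6, 17.3, and 16.8 CPM (-1.80 ± 0.21), SKA1 (-1.62), SPC25 (-1.45), and NUF2 (-1.37). Of 28 spindle and cytokinesis genes, 26 were lower with the most negative median of the lists (-1.03), and the microtubule-binding CKAP2L reached -2.06 ± 0.20. The motor genes KIFC1 (-1.49) and KIF2C (-1.36) were in the same list. Of 17 condensin, cohesin, and topoisomerase genes 15 were lower, with TOP2A, the enzyme that untangles sister chromatids, at 340.0, 236, and 263 CPM against 738, 563, and 583 CPM. Against untreated day-7 cells the medians of the kinetochore and spindle lists were -0.94 and -1.21 with palbociclib, and -0.19 and -0.14 with alisertib.

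**Figure D1:**
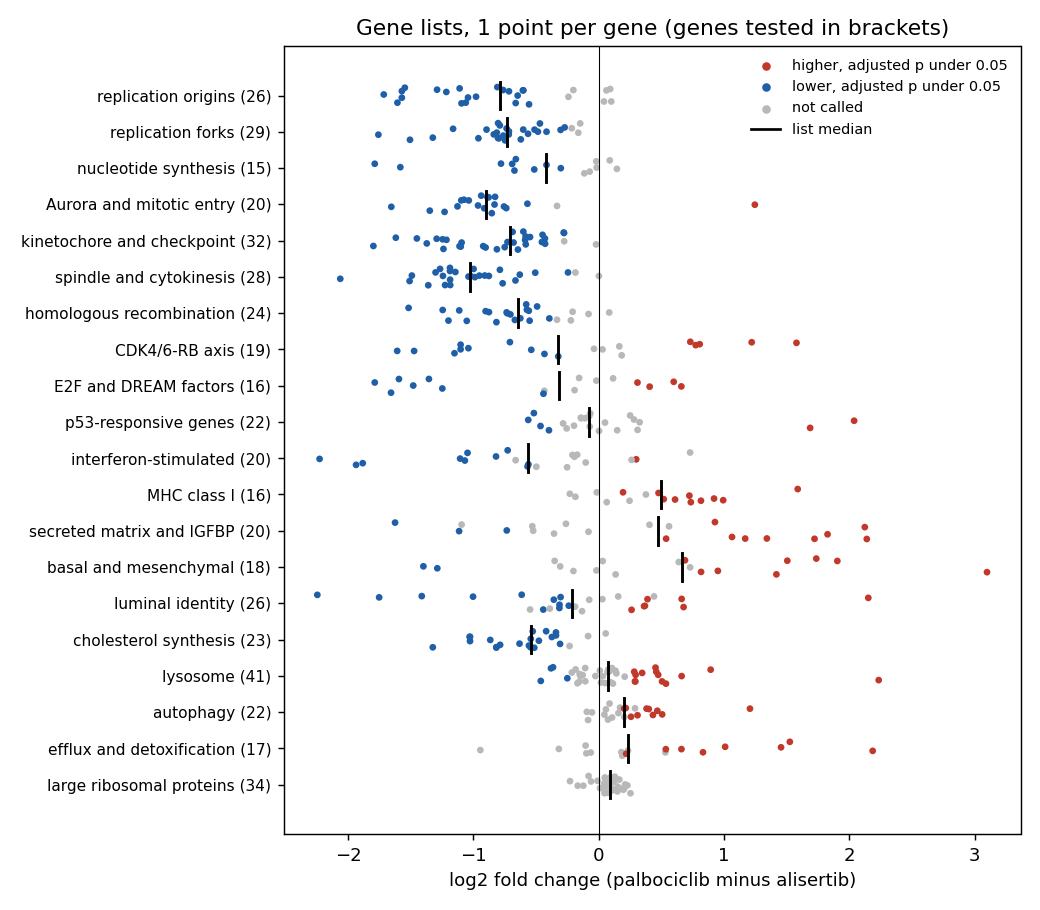
Log2 fold-change (palbociclib minus alisertib, horizontal axis) of each tested gene of 20 gene lists, in red or blue for genes higher or lower at an adjusted p under 0.05 and grey for the others, with a black bar at the list median. The 7 replication, mitosis, and recombination lists have medians of -0.42 to -1.03, and FN1 of the basal list lies furthest to the right at 3.10.

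Chromatin genes known to change in senescent cells were mostly lower with palbociclib than with alisertib. LMNB1, lamin B1 of the nuclear envelope, measured 24.6, 15.4, and 19.9 CPM with palbociclib, 58.3, 51.9, and 59.2 CPM with alisertib, and 83, 68.3, and 82.3 CPM untreated at day 7 (-1.49 ± 0.14, adjusted p = 3.64e-05). It fell against untreated cells with both drugs, with log2 fold-changes of -1.96 and -0.45, respectively. The chromatin protein gene HMGB2 (-1.54) was also lower, and 13 of 19 genes of the list were lower and 0 higher by edgeR and by DESeq2, with 1 higher at an unadjusted p under 0.05 or with the replicate block. Of 21 histone genes 11 were higher and 6 lower, with summed levels of 1444 ± 111 and 1498 ± 48.5 CPM. H2BC4 measured 6.22, 6.35, and 6.46 CPM against 1.91, 1.94, and 1.61 CPM (1.81 ± 0.17) and H3C4 was at 1.76, both replication-dependent genes, whereas the linker histone H1-10 (-1.67) and the centromeric CENPA (-1.24) were lower. Labels and methods name different RNA kits, for mRNA and for total RNA, and levels of histone transcripts, which mostly lack a poly(A) tail, depend on which was used. Gene families such as histones can also share reads between near-identical copies.

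Of 22 genes responsive to p53, 2 were higher, 4 lower, and 16 not called, against 13.4% higher and 14.9% lower over all genes tested. These counts do not set the list apart from all genes. The number lower was 1 or 2 without palbociclib replicate 1 or 3, without alisertib replicate 1 or 2, and with all 24 libraries in 1 fit. The 2 higher were BTG2, an antiproliferative gene, at 27.2, 28.4, and 34.9 CPM against 6.41, 6.89, and 8.67 CPM (2.04 ± 0.14, adjusted p = 5.25e-06), and TP53INP1 (1.69 ± 0.11). MDM2 had a value of -0.07 (adjusted p = 0.457) and GDF15 of 0.00 (adjusted p = 0.994).

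Interferon-stimulated genes were more often lower than higher in palbociclib against alisertib cells. Of 36 listed genes, 15 were not in the table, including IFIT1 and RSAD2, and of 20 tested 10 were lower and 1 higher (median -0.56). IFI6, a mitochondrial survival protein gene induced by interferon, measured 3.06, 3.52, and 3.17 CPM in palbociclib, 12.1, 17.2, and 16.3 CPM in alisertib, and 4.96, 7.64, and 5.39 CPM in untreated day-7 cells. Alisertib lay above untreated cells (1.36, adjusted p = 0.0013) and palbociclib below them (-0.88, adjusted p = 0.00465), with a direct log2 fold-change of -2.23 ± 0.16. The RNA-sensing synthetase genes OAS2 (1.08, 1.66, and 1.12 against 4.27, 6.36, and 4.17 CPM) and OAS3 (7.6, 6.77, and 6.74 against 27.3, 25.5, and 25.2 CPM) showed the same order of the 2 drugs. BST2 (-1.10), MX1 (-1.07), IFITM1 (-1.05), and OAS1 (-0.82) were lower.

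Of the interferon-stimulated genes, 2 were higher and 11 lower with the replicate block, and also at an unadjusted p under 0.05 in edgeR's main test. The largest log2 fold-change in the list was 0.73. The 1 gene called higher in the main fit was LGALS3BP, a secreted glycoprotein gene at 1051, 1269, and 1270 CPM against 876, 993, and 1055 CPM (0.30 ± 0.10, adjusted p = 0.0489, edgeR). It was so abundant that the summed level of the list was 1336 ± 122 CPM with palbociclib and 1193 ± 85 CPM with alisertib (SD, n = 3), opposite in sign to the median. The adjusted p of LGALS3BP was 0.000626 to 0.334 over the alternatives and above 0.05 without any 1 of the libraries other than palbociclib replicate 1 (0.0595 to 0.188). Of its regulators, IRF9, the DNA-binding subunit of the interferon-activated complex, measured 7.72, 7.1, and 8.08 CPM with palbociclib, 17.7, 19.9, and 17.9 CPM with alisertib, and 4.92, 6.84, and 7.16 CPM untreated at day 7 (-1.27 ± 0.11, adjusted p = 2.28e-05). IRF7 (-1.19) was lower, whereas STAT2 (0.61), IRF1 (0.85), the kinase gene JAK1 (0.67), and the receptor gene IFNGR1 (0.45) were higher. Of 12 nucleic acid sensing genes 3 were lower with palbociclib, or 5 with the replicate block, and 1 was higher, the adaptor MAVS (0.34), which was not called with all 24 libraries in 1 fit. The lower genes included the RNA sensor IFIH1 (MDA5, -0.56) and the DNase gene TREX1 (-1.41), which overlaps ATRIP on the same strand.

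Antigen presentation genes were mostly higher with palbociclib. Of 16 MHC class I genes 10 were higher and 0 lower by edgeR (median 0.50), with 1 lower by DESeq2, with the replicate block, or at an unadjusted p under 0.05. With all 24 libraries in 1 fit 6 were higher. The summed level of the list was 2720 ± 117 CPM with palbociclib and 2662 ± 149 CPM with alisertib (SD, n = 3), so that the ranges of mean and SD overlapped. The immunoproteasome gene PSMB8 measured 10.8, 12.4, and 9.75 CPM with palbociclib and 4.72, 6.53, and 6.11 CPM with alisertib (0.92 ± 0.16), and PSMB9 (1.59) and PSMB10 (0.82) were higher as well. B2M, the shared light chain, was at 0.06 (adjusted p = 0.599). The HLA genes in the list can share reads between paralogues and are uncertain. Among ligands for immune cells, TNFSF10 (TRAIL), a death receptor ligand, measured 4.09, 6.42, and 4.88 CPM against 1.97, 2.6, and 1.94 CPM (1.24 ± 0.22), the galectin LGALS9 was at 1.22, and ULBP2, a ligand of the NK cell receptor NKG2D, at -1.24.

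Secreted factors of the senescence-associated secretory phenotype were examined in 2 lists. Of 32 matrix, protease, and insulin-like growth factor binding genes 20 were tested, of which 9 were higher and 3 lower in palbociclib cells (median 0.47). Their summed level was 1376 ± 112 CPM against 762 ± 77.7 CPM (SD, n = 3), and most of this difference came from IGFBP5. IGFBP5 measured 689.9, 415, and 689 CPM with palbociclib, 156, 101, and 151 CPM with alisertib, and 126, 93.3, and 127 CPM untreated at day 7 (2.14 ± 0.21, adjusted p = 4.11e-05). IGFBP3 measured 34.3, 36.9, and 41.8 CPM against 7.57, 9.93, and 8.45 CPM (2.12 ± 0.12). Alisertib cells did not pass the threshold against untreated cells for either gene (adjusted p = 0.291 and 0.0888). IGFBP7 (1.72) and the collagenase MMP13 (1.83) were higher too, and IGFBP2, of the same binding protein family, was lower, at 19.9, 15.7, and 17.3 CPM against 59.8, 48.1, and 55.6 CPM (-1.62 ± 0.11).

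Of 34 chemokine and cytokine genes of the inflammatory secretome 20 were not listed in the table, including CXCL8, IL6, and IL1B. Of the 14 tested 4 were higher and 3 lower with palbociclib. IL18 measured 16.3, 14.1, and 14.3 CPM against 5.95, 6.44, and 4.76 CPM (1.39 ± 0.14), and TGFB2 was at 1.22 and IL32 at 1.42. CX3CL1, a membrane-bound chemokine, was higher with alisertib (49.7, 46.3, and 47.8 against 92, 71.9, and 77.3 CPM), as was the macrophage growth factor CSF1 (-0.84). Of 18 NF-κB target and pathway genes, 3 were higher and 1 lower, against 13.4% higher and 14.9% lower over all genes tested. With the replicate block 5 were higher and 2 lower. The adhesion gene ICAM1 was at 1.23 ± 0.12 in the main fit.

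FN1, fibronectin (chr2:216225163-216300796), measured 479, 594, and 743 CPM with palbociclib, 67.3, 64.3, and 80.9 CPM with alisertib, and 66.5, 92.4, and 77.2 CPM untreated at day 7, 8.56-fold higher with palbociclib than with alisertib (3.10 ± 0.16, adjusted p = 6.12e-07). The lowest palbociclib library exceeded the highest of all others. CAV1, the caveolae coat, measured 39.3, 28.6, and 34.7 CPM against 10.3, 9.57, and 7.7 CPM (1.90 ± 0.14), and the tropomyosin TPM2 (1.74) was higher. Of 18 tested basal and mesenchymal genes 8 were higher and 2 lower, while VIM, ZEB1, and SNAI2 were not listed in the table. The 2 lower were the hard keratins KRT81, at 632, 627, and 522 CPM against 1449, 1513, and 1394 CPM, and KRT86 (-1.40), which overlap each other on opposite strands. The summed level of the basal list was 1640 ± 67.8 CPM with palbociclib and 1840 ± 60.6 CPM with alisertib (SD, n = 3), opposite in sign to its median of 0.66. Of 26 luminal genes 7 were higher and 11 lower, with the trefoil factor TFF3 (3.4, 2.83, and 2.39 against 15.3, 11.2, and 14.5 CPM) and AGR2 (-1.41) lower, PIP, the prolactin-induced protein, higher (11.2, 14, and 12.5 against 2.39, 3.51, and 2.56 CPM), and GATA3 at 0.39. The number of luminal genes lower was 6 with all 24 libraries in 1 fit and 7 without palbociclib replicate 3 or without alisertib replicate 2.

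Cholesterol synthesis genes were lower with palbociclib than with alisertib across the pathway. Of 23 tested, 20 were lower and 0 higher in edgeR's and DESeq2's tests, and the median was -0.54. With all 24 libraries in 1 fit 12 of them were lower. At an unadjusted p under 0.05, 21 were lower and 0 higher. HMGCS1, the enzyme before the rate-limiting step, measured 69.3, 63.1, and 69.2 CPM in palbociclib, 147, 133, and 132 CPM in alisertib, and 99.8, 97, and 98.4 CPM in untreated day-7 cells. The 3 groups did not overlap, as palbociclib lay below (-0.54, adjusted p = 0.000159) and alisertib above (0.50, adjusted p = 0.00138) the untreated level. INSIG1, which retains the sterol regulator SCAP in the endoplasmic reticulum, showed the same order, at 65.7, 68.6, and 76 CPM, 136, 141, and 152 CPM, and 86, 103, and 92.3 CPM. ACAT2 (-1.32), EBP (-1.03), and SQLE (-0.56) were lower. The list medians against untreated day-7 cells were -0.17 with palbociclib and 0.43 with alisertib, and the summed levels were 4165 ± 136, 5733 ± 397, and 4447 ± 218 CPM in palbociclib, alisertib, and untreated day-7 cells (SD, n = 3).

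Of 21 fatty acid genes 8 were lower and 2 higher, with 3 lower in 1 fit of all 24 libraries and 5 without palbociclib replicate 1 or without alisertib replicate 1 or 3. The desaturase genes FADS2 (20.1, 31, and 28.4 against 52.9, 59.5, and 60.6 CPM) and FADS1 (-1.56) and the carboxylase ACACB (-0.99) were lower, and the thioesterase OLAH was higher (7.24, 7.29, and 7.55 against 2.49, 3.4, and 3.27 CPM). FADS2 overlaps the replication fork gene FEN1 on the same strand and FADS1 on the opposite strand, and ACACB overlaps UNG on the same strand. In glycolysis, PFKFB3, which makes the allosteric activator of phosphofructokinase, measured 238, 223, and 216 CPM with palbociclib, 78.6, 77.7, and 73.1 CPM with alisertib, and 74.8, 81.8, and 72.7 CPM untreated at day 7 (1.57 ± 0.07, adjusted p = 4.37e-07). LDHA, lactate dehydrogenase, was lower (-0.50 ± 0.08). Of 24 glycolysis genes 3 were higher and 6 lower, against 13.4% higher and 14.9% lower over all genes tested. The number lower was 3 without alisertib replicate 3 and 2 with all 24 libraries in 1 fit.

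**Figure D2:**
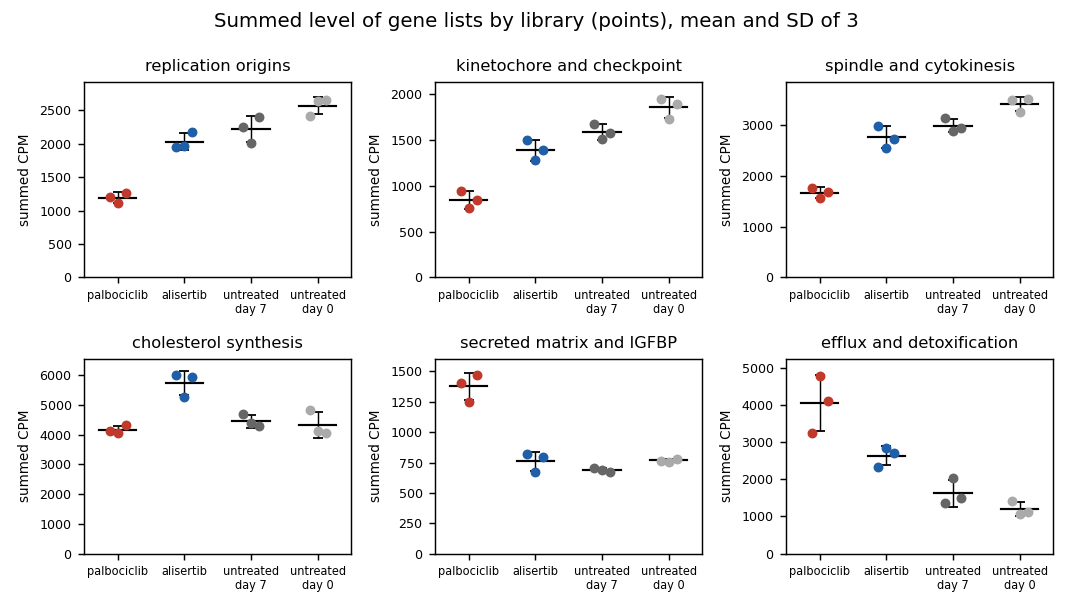
Summed CPM (vertical axes, from 0) of 6 gene lists in palbociclib, alisertib, untreated day-7, and untreated day-0 cells, with 1 point per library, a line at the mean, and bars for the SD of 3 libraries. Sums of the replication and mitosis lists are lowest in palbociclib cells, those of cholesterol synthesis highest in alisertib cells, and those of secreted matrix and efflux genes highest in palbociclib cells.

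Lysosome and autophagy genes leaned higher with palbociclib. Of 41 lysosome genes 13 were higher and 4 lower, or 2 lower without alisertib replicate 3 and 1 with all 24 libraries in 1 fit (median 0.08), led by the protease CTSS (2.23) and the fucosidase FUCA1 (0.89), and PSAP, the prosaposin precursor, measured 3173, 3420, and 3473 CPM against 2080, 2048, and 2249 CPM (0.66 ± 0.09). Of 22 autophagy genes 10 were higher and 0 lower, the latter also at an unadjusted p under 0.05 (median 0.20). The count was 3 with all 24 libraries in 1 fit, 6 without palbociclib replicate 1, 5 without palbociclib replicate 2, 6 without alisertib replicate 1, and 4 without alisertib replicate 3. GABARAPL1, which conjugates to autophagosome membranes, measured 77, 82.8, and 78.2 CPM against 29.5, 37.4, and 36.3 CPM (1.21 ± 0.09).

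Efflux and detoxification genes were higher with palbociclib in 8 of 17, or 5 with all 24 libraries in 1 fit. By edgeR 0 were lower, with 1 lower at an unadjusted p under 0.05 or without alisertib replicate 2 and 2 with the block. The multidrug transporter ABCC4 measured 39.2, 60.4, and 66.6 CPM with palbociclib, 11.4, 12, and 13.1 CPM with alisertib, and 6.88, 11.9, and 7.74 CPM untreated at day 7 (2.19 ± 0.17, adjusted p = 1.16e-05). ALDH1A3, a retinaldehyde dehydrogenase, measured 606, 615, and 576 CPM against 203, 225, and 198 CPM (1.52 ± 0.08), and ABCC3 was at 1.46 ± 0.30. CYP1A1, a target of the aryl hydrocarbon receptor, ranged from 835 to 1910 CPM with palbociclib, from 494 to 843 CPM with alisertib, and from 56.1 to 386 CPM untreated at day 7, so that both drug groups overlapped (1.01 ± 0.26, adjusted p = 0.0144, or 0.0528 without alisertib replicate 1 and 0.457 with all 24 libraries in 1 fit). ABCB1 was not listed in the table.

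Among BCL-2 family genes, BMF, a BH3-only sensor of detachment and stress, stood out at 94.7, 134, and 124 CPM with palbociclib, 20.4, 26, and 24 CPM with alisertib, and 18.7, 33.6, and 28.3 CPM untreated at day 7 (2.33 ± 0.13, adjusted p = 1.54e-06). Alisertib and untreated cells overlapped and palbociclib libraries all lay above them. Of the 16 genes 5 were higher and 2 lower, or 6 and 4 with the replicate block. The number higher was 2 with all 24 libraries in 1 fit, and 3 without alisertib replicate 2 or 3, and the number lower was 0 or 1 without any 1 library. The p53-responsive BBC3 (-0.14, adjusted p = 0.621) did not pass.

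Of 21 genes of the ATF4 stress list 4 were higher and 3 lower, against 13.4% higher and 14.9% lower over all genes tested. The number lower was 1 without palbociclib replicate 1, without alisertib replicate 3, and with all 24 libraries in 1 fit. DDIT4 (REDD1), an inhibitor of mTORC1 signalling, measured 441, 605, and 403 CPM with palbociclib and 120.2, 226, and 153 CPM with alisertib (1.54 ± 0.21), and ATF3 was at 1.09 ± 0.09. Of 18 unfolded protein response genes 5 were lower and 1 higher, with 3 lower without palbociclib replicate 1 or 3, and the chaperone cofactor SDF2L1 was at -0.73. HER2 itself did not differ past the threshold (ERBB2 -0.01 ± 0.10, adjusted p = 0.961), and EGFR (0.56 ± 0.10) and EGF (0.45 ± 0.09) were higher with palbociclib. Of 29 actin and tubulin genes 6 were higher and 10 lower, with 3 higher without alisertib replicate 3 or with all 24 libraries in 1 fit and 10 higher with the block, in which the focal adhesion gene ZYX (0.87) and the filamin FLNA (0.51) were higher and the tubulins TUBB4B (-0.92) and TUBA1B (-0.87) lower.

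Of 34 large ribosomal protein genes 0 were called by edgeR in either direction (4 higher and 0 lower at an unadjusted p under 0.05), while DESeq2 called 3 higher, leaving out palbociclib replicate 3 gave 4 higher, and the replicate block gave 8 higher and 2 lower. The list median was 0.09. Of 32 ribosome biogenesis genes linked to MYC, 1 was higher and 1 lower, or 4 and 3 with the block and 0 to 2 in each direction without any 1 library. Of 13 mRNAs of mitochondrial DNA 0 were called by edgeR (0 at an unadjusted p under 0.05) or DESeq2, or 4 lower with the block.

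Among genes with a mean of at least 5 CPM in the higher group and no overlap between both groups, the 12 with the largest log2 fold-change toward palbociclib were FN1, described above, and the following. GABBR2, a subunit of the GABA-B receptor, measured 19, 20.7, and 28.5 CPM with palbociclib, 0.679, 1.58, and 2.01 CPM with alisertib, and 1.14, 1.22, and 1.53 CPM untreated at day 7 (3.96 ± 0.28, adjusted p = 6.52e-06). MGP, the matrix Gla protein that restrains calcification, measured 72.5, 60.0, and 92.3 CPM against 4.69, 4.73, and 5.27 CPM and 5.44, 6.3, and 5.05 CPM (3.93 ± 0.16). Palbociclib stood apart in both, and alisertib did not pass against untreated cells (adjusted p = 0.756 and 0.451). The sodium channel gene SCN8A was at 3.61, FAM83A at 3.61, the cyclooxygenase PTGS1 at 3.51, the protease TMPRSS4 at 3.43, the protease inhibitor SERPINA3 at 3.04, the vitamin D hydroxylase CYP24A1 at 2.96, COLCA1 at 2.89, and the YAP target CCN2 at 2.88. PTGS1 reached 83.6, 151, and 126 CPM against 7.6, 12.3, and 11.7 CPM. The guanylate-binding protein gene GBP2, inducible by interferon, was at 2.80 ± 0.26, with 5.29, 6.38, and 5.72 CPM against 0.518, 1.13, and 0.816 CPM.

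The 12 at the other end included TFF3, IFI6, and CKAP2L, described above, the muscarinic receptor CHRM1 at 1.53, 2.57, and 1.49 CPM against 10.0, 10.9, and 8.85 CPM (-2.41 ± 0.22) and CORO1A, an actin-binding coronin, at 7.63, 6.77, and 6.59 CPM against 34.9, 29.8, and 36 CPM (-2.26 ± 0.11). MAPK4 (-2.37), CLIC3 (-2.12), OSBP2 (-2.11), GDPD3 (-2.07), IL17REL (-2.07), and MAPK8IP2 (-2.06) were also lower. IL17REL measured 11.7, 15.1, and 15.9 CPM with palbociclib, 45.6, 64, and 69.5 CPM with alisertib, and 32.5, 48.3, and 38.7 CPM untreated at day 7.

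The most negative value belonged to LOC112694756, at 13.7, 11.4, and 10.6 CPM with palbociclib and 436, 461, and 255 CPM with alisertib (-5.01 ± 0.22). RefSeq places this gene model over ALDOA, the glycolytic aldolase A gene on chromosome 16, so that reads can be split between both and its value is uncertain. ALDOA itself measured 1318, 1365, and 1220 CPM against 1155, 1054, and 1203 CPM (0.20 ± 0.09, adjusted p = 0.114, or 0.0287 with the block). Of the counts of both models together, 0.828% to 1.03% were given to LOC112694756 in palbociclib libraries, 17.5% to 30.4% in alisertib libraries, and 26.9% to 30.6% in untreated day-7 libraries, while the summed level was 1231 to 1376 CPM, 1458 to 1591 CPM, and 1646 to 2021 CPM, respectively.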

How the data were processed

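SKBR3 cells were profiled by mRNA-seq in 24 libraries, 8 groups of 3, of which those of palbociclib, alisertib, and untreated cells were used here. The authors made the deposited table of raw read counts for 14493 genes, and the study's methods and the submitters' processing notes name bcl2fastq, HISAT2, StringTie, DESeq2, and build GRCh37. The counting settings, strand included, are not given in the sources used here. The labels name an mRNA kit and the methods a total RNA kit.

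Genes with low counts were removed by filterByExpr and counts were TMM-normalized. Palbociclib was compared with alisertib by the quasi-likelihood test of edgeR 4.0.16 (R 4.3.3) on these 6 libraries, without covariates, and each drug with untreated day-7 cells in its own fit. P-values were adjusted by Benjamini-Hochberg over all genes tested. CPM levels were TMM-scaled over 12 libraries. Called genes had an adjusted p under 0.05 and, where stated, a fold of at least 2. An exact permutation test of 3 against 3 cannot go below p = 0.1, so none was used. Named genes were the 12 largest changes in each direction without overlap and with a mean of at least 5 CPM, the members of the CDK4/6-RB axis, AURKA, AURKB, TPX2, BORA, and PLK1, up to 4 called members per list and direction, and members of lists of 24 or fewer. MX1, OAS1, IFITM1, MDM2, GDF15, and ALDOA were chosen after their values were seen. Members and the 40 gene lists were chosen with earlier results of these data known. The fit was tested on simulated counts.

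Deviations from the group means correlated between same-numbered palbociclib and alisertib libraries at 0.162, 0.223, and 0.259. The labels state no pairing, and libraries of unlike number were not compared, so a pairing was not established. The main fit therefore held no block, and the replicate block was an alternative. Against untreated day-7 cells the correlations were 0.0427 to 0.231 for palbociclib and 0.0868 to 0.209 for alisertib, and no pairing was taken there either. Alternatives were DESeq2 1.42.0, 1 fit of all 24 libraries, the replicate block, RLE factors, a minimum of 10 counts per library or no filter, a day-0 reference, and leaving out each library.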

Additional observations from a re-analysis of the deposited data

How the results depend on the processing

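The numbers of genes at least 2-fold higher and lower in palbociclib than in alisertib cells (389 and 397) were 370 and 370 by DESeq2, 348 and 339 with a minimum of 10 counts per library, 365 and 385 with all 24 libraries in 1 fit, and 403 and 420 with the replicate block. They were 344 to 390 and 353 to 423 on leaving out any 1 library, and 1856 and 2060 without the fold threshold. At any fold the replicate block gave 2692 and 2835. Against untreated day-7 cells, 879 genes were at least 2-fold higher and 639 lower with palbociclib (749 to 960 and 567 to 714 without any 1 library), and 291 higher and 81 lower with alisertib (169 to 352 and 56 to 105, with 169 without alisertib replicate 3). With day-0 cells as the reference, 1424 genes were higher with palbociclib, and 834 were higher and 190 lower with alisertib. The cause was not tested. Of 236 called genes eligible for naming, 190 stayed called in every alternative listed and 46 lost the call in at least 1, and no log2 fold-change reversed its sign among called values. Beside the calls of CDK4, RBL2, and ALDOA given above, the replicate block changed no other call of a named gene.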
